A study of Homo sapiens with 15 samples.

Results

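Axon guidance genes were followed in IMR32 cells, an established human neuroblastoma line in which MYCN is amplified. The cells carried an inducible short hairpin RNA that depletes CDK2, a kinase needed with cyclins E and A when cells begin and complete DNA synthesis. Members were all probe sets whose single gene symbol begins with SEMA, PLXN, EFNA, EFNB, EPHA, EPHB or UNC5, or with ROBO, SLIT or NTN and a digit, or is NRP1, NRP2, DCC or NEO1. This gave 78 genes on 184 probe sets, of 19775 genes and 54613 probe sets on the array. Of these, 83 probe sets of 43 genes passed the filter on low signals (a mean signal of about 16.6 units over the arrays). The names also took in 7 noncoding RNA genes that lie beside guidance genes, and UNC50 and UNC5CL, which share the letters but are not netrin receptors. That left 42 guidance genes past the filter, 21 ligands and 21 receptors.

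The study measured 15 arrays of total RNA, 3 each at 0, 8, 24, 48 and 72 h after doxycycline (100 ng/ml), with hours taken from knowledge of the study, since the labels give the times with no unit. All groups are the same clone: parental cells took up a tetracycline repressor driven by a CMV promoter, then a plasmid with the hairpin (aimed at bases 546 to 566 of the CDK2 transcript), and were selected with Blasticidin-S and then with Zeocine as well. Every later time is compared with the cells at 0 h, and there are no parallel cultures that lacked doxycycline or held another hairpin, so time in culture, doxycycline and loss of CDK2 cannot be told apart. The sources do not say whether the 3 arrays of a time are separate cultures. P-values therefore reflect only how far these arrays spread, which may be technical.

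Growing axons steer by cues that their tips read through surface receptors. Semaphorins act through plexins, with neuropilins as co-receptors for the secreted ones. Ephrins, held on the membrane, bind Eph receptor tyrosine kinases on the neighbouring cell, and both sides can signal. Netrins act through DCC, neogenin and the UNC5 proteins, and slits repel through roundabout (ROBO) receptors. In the neural crest, from which neuroblastoma arises, these families guide migrating sympathetic precursors as well as their axons.

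Of the members past the filter, receptors of the semaphorin and netrin systems had the largest rises. At 72 h the netrin receptor UNC5C was 5.63-fold, the co-receptor NRP1 4.60-fold and the plexin PLXNB2 2.99-fold its level at 0 h, on the scale of signal + 16. On the same scale, the largest falls were in the semaphorin SEMA5A (to 0.331 of its 0 h level), the netrin receptor NEO1 (0.509) and the ephrin EFNB2 (0.544). ROBO1 and EFNA5 were not called at 72 h.

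The sequences upstream of the start are shown for UNC5C and SLIT2, which rose and lie on the same chromosome, for SEMA6D, which rose and has an E-box there, and for SEMA5A, the gene with the largest fall. SEMA6D stands outside the rule for named genes and was chosen after its values were seen. They are RefSeq sequences of build GRCh38.p14, 250 bases up to the annotated start and read along the gene, and capitals mark the motifs found.
UNC5C, chr4:95548974-95549223, minus strand: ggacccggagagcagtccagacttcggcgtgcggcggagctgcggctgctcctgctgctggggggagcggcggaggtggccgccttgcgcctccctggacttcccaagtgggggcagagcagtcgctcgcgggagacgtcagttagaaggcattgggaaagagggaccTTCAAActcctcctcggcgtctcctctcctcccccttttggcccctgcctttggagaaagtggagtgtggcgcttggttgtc
SLIT2, chr4:20251655-20251904, plus strand: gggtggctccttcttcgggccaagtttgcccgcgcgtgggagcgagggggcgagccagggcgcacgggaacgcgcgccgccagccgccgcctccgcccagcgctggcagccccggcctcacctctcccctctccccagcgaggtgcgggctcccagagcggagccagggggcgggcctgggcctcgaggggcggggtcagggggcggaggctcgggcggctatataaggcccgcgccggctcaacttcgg
SEMA6D, chr15:47183839-47184088, plus strand, the outermost of 3 windows of the gene: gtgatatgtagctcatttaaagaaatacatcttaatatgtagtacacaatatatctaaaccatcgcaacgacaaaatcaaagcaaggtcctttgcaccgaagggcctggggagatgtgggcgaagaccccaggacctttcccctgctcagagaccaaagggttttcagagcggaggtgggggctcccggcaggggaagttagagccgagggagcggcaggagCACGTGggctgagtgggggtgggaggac
SEMA5A, chr5:9546076-9546325, minus strand: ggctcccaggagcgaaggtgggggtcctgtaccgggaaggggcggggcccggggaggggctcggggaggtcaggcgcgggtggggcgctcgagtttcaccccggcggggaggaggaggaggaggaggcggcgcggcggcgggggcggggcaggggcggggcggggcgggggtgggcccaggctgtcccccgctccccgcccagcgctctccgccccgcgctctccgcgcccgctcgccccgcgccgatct

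Both strands were searched for an E-box (CACGTG, bound by MYC family proteins), an E2F motif (TTTGGCGC or TTTCGCGC), a cell-cycle homology region (CHR, TTTGAA) and a p53 half-site. The UNC5C window has a CHR on the reverse strand, 82 to 77 bases before the start, and the SEMA6D window has an E-box 28 to 23 bases before it. None of the 4 motifs stands in the SLIT2 and SEMA5A windows. Windows were found for 38 of the 43 genes past the filter, 54 windows in all. Of these, 3 held an E-box, 0 an E2F motif, 5 a CHR and 5 a p53 half-site. Among all 35116 windows the shares were 6.34% for the E-box, 0.968% for the E2F motif, 13.3% for the CHR and 5.57% for the p53 half-site. The base composition also differed: G and C made up 65.6% of the UNC5C window, 77.2% of the SLIT2 window, 53.6% of the SEMA6D window and 82.0% of the SEMA5A window.

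CDK2 itself fell, which checks the labels: its brightest probe set averaged 231.7 ± 16.3, 94.5 ± 5.56, 80.4 ± 7.72, 48.6 ± 7.36 and 30.1 ± 9.90 units at 0, 8, 24, 48 and 72 h (SD, n = 3). Of the noradrenergic markers of this tumour 10 of 11 on the array passed the filter, with TH at 0.633 to 6.80 units on average, and their summed signal was 13410 to 14480 units on the 72 h arrays and 11000 to 11370 on the 0 h arrays. Markers of other cells were mixed. All 4 immune markers lay below the filter, with sums of 13.6 to 51.4 units over all arrays, and 1 of 4 endothelial, 1 of 4 epithelial, 2 of 8 Schwann cell or mesenchymal and 5 of 8 fibroblast markers passed it. Summed fibroblast markers ran from 1490 to 1753 units at 72 h and from 1147 to 1437 units at 0 h. Their part in the guidance results was not tested. Of the 5 past the filter, LUM, PDGFRB and THY1 were higher at 72 h and PDGFRA lower (-0.29, adjusted p = 0.0409), and COL1A1 was not called (0.04). LUM, a small proteoglycan, was 346.3 ± 42.7 units at 72 h and 13.7 ± 3.70 at 0 h (SD, n = 3). Without LUM, a sum added after seeing the data, the list ran from 1161 to 1358 units at 72 h and from 1137 to 1423 units at 0 h. PDGFRA was 679.2 ± 35.8 units at 72 h and 838.5 ± 98.1 at 0 h (SD, n = 3), whereas COL1A2, COL3A1 and DCN stayed below the filter. SOX10, the defining Schwann cell factor, averaged 3.07 to 9.07 units. The 8 Schwann cell or mesenchymal markers together summed to 1400 to 1629 units at 72 h and to 1325 to 1721 units at 0 h. Of the 2 past the filter, 1 was called higher at 72 h and 0 lower. In bulk RNA, fewer cells of a type and less RNA per cell cannot be told apart.

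Members past the filter moved upwards more often than downwards, increasingly from 24 h on. At 8 h, 0 of the 83 probe sets were called in limma, where 0.0293% of the 27307 probe sets tested were called higher and 0.212% lower. Before adjustment (p under 0.05), 6 of the 83 were higher and 1 lower, beside 1384 and 1193 of all 27307. All other settings tried gave 0 calls of members at this time. At 24 h, 9 were higher and 1 lower (background 4.68% and 4%). Most of those 9 depended on single arrays, but the rises of PLXNB1 and PLXNB2 stayed called whichever array was dropped. Dropping any 0 h replicate left 3 higher, dropping 24 h replicate 1 left 2, and dropping 24 h replicate 2 or 3 left 5. The number of all probe sets called higher, 1278, also shrank. It was 671, 701 and 743 as 0 h replicates 1, 2 and 3 were dropped in turn, and 691, 896 and 718 for those at 24 h. The 1 lower became 2 when 8 h replicate 3 was dropped. At 48 h, 27 (32.5%) were higher and 9 (10.8%) lower, where 20.8% and 13.8% of all were. At 72 h, 37 (44.6%) were higher and 9 (10.8%) lower, where 27.1% and 19.3% of all were. The median log2 change of the 83 was 0.08, 0.15, 0.19 and 0.28 at 8, 24, 48 and 72 h, and that of all probe sets tested 0.01, 0.05, 0.08 and 0.09. These are descriptions of the probe sets that passed. Some did so through the later times: the brightest probe sets of PLXNB1, SEMA4G, EPHB4 and NTN4 averaged less than 16.6 units at 0 h.

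With each array centred on its median, 29 member probe sets were higher and 13 lower at 72 h, and of all probe sets 5687 were higher and 6449 lower, against 7410 and 5274 as deposited. At 48 h the centred counts of members were 18 and 10, and at 24 h 3 and 1. Those of all probe sets were 3962 and 4934 at 48 h, and 691 and 1511 at 24 h. Quantile normalisation gave 30 and 11 members at 72 h, 18 and 10 at 48 h, and 4 and 1 at 24 h. Of all probe sets it gave 6509 and 6004 at 72 h, 4856 and 4345 at 48 h, and 959 and 1174 at 24 h.

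**Figure D1:**
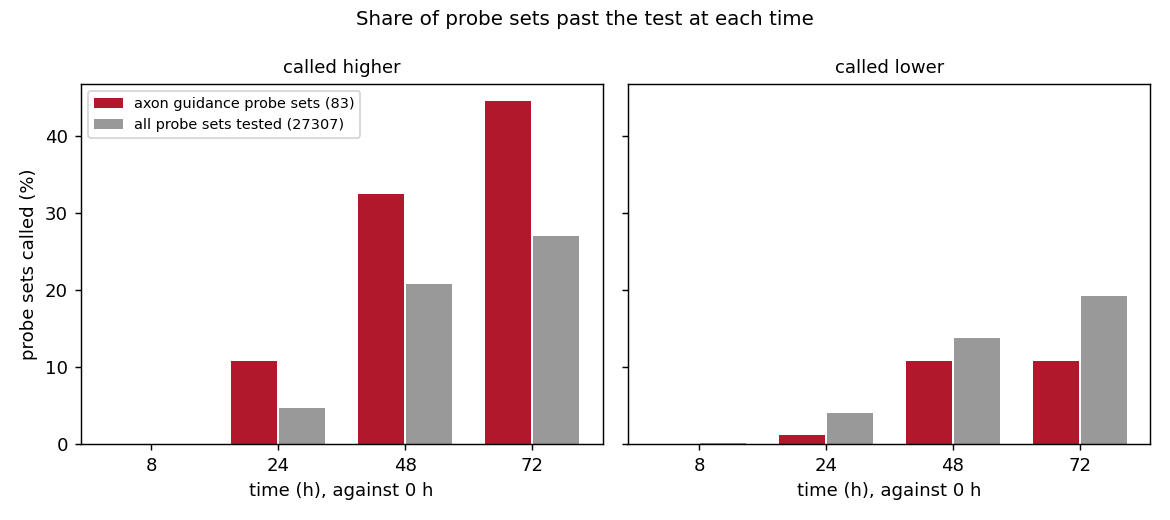
Share of probe sets (percent, y axis) with an adjusted p under 0.05 at each time in hours against 0 h, called higher (left) and lower (right), for the 83 axon guidance probe sets past the filter (red) and all 27307 tested (grey). Red bars stand above grey for rises from 24 h on, reaching 44.6% against 27.1% at 72 h, and below grey for falls.

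Counted by genes, each through its brightest probe set, 6 of the 43 were higher and 1 lower at 24 h, 19 and 3 at 48 h, and 24 and 3 at 72 h. Of the 11774 genes measured this way, 6.17% were higher and 4.79% lower at 24 h, 24.6% and 16.7% at 48 h, and 31.5% and 21.9% at 72 h. Of the 21 ligands 10 rose and 2 fell at 72 h, with a median log2 change of 0.30, and of the 21 receptors 13 rose and 1 fell, with a median of 0.68. The difference between ligands and receptors was not tested. All comparisons with 0 h share the same 3 arrays. Of the 56 gene calls against 0 h, 36 kept their side of the threshold under every setting that tested the gene, the added threshold on the change aside, and without any 1 array, 19 of them at 72 h, 14 at 48 h and 3 at 24 h.

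**Figure D2:**
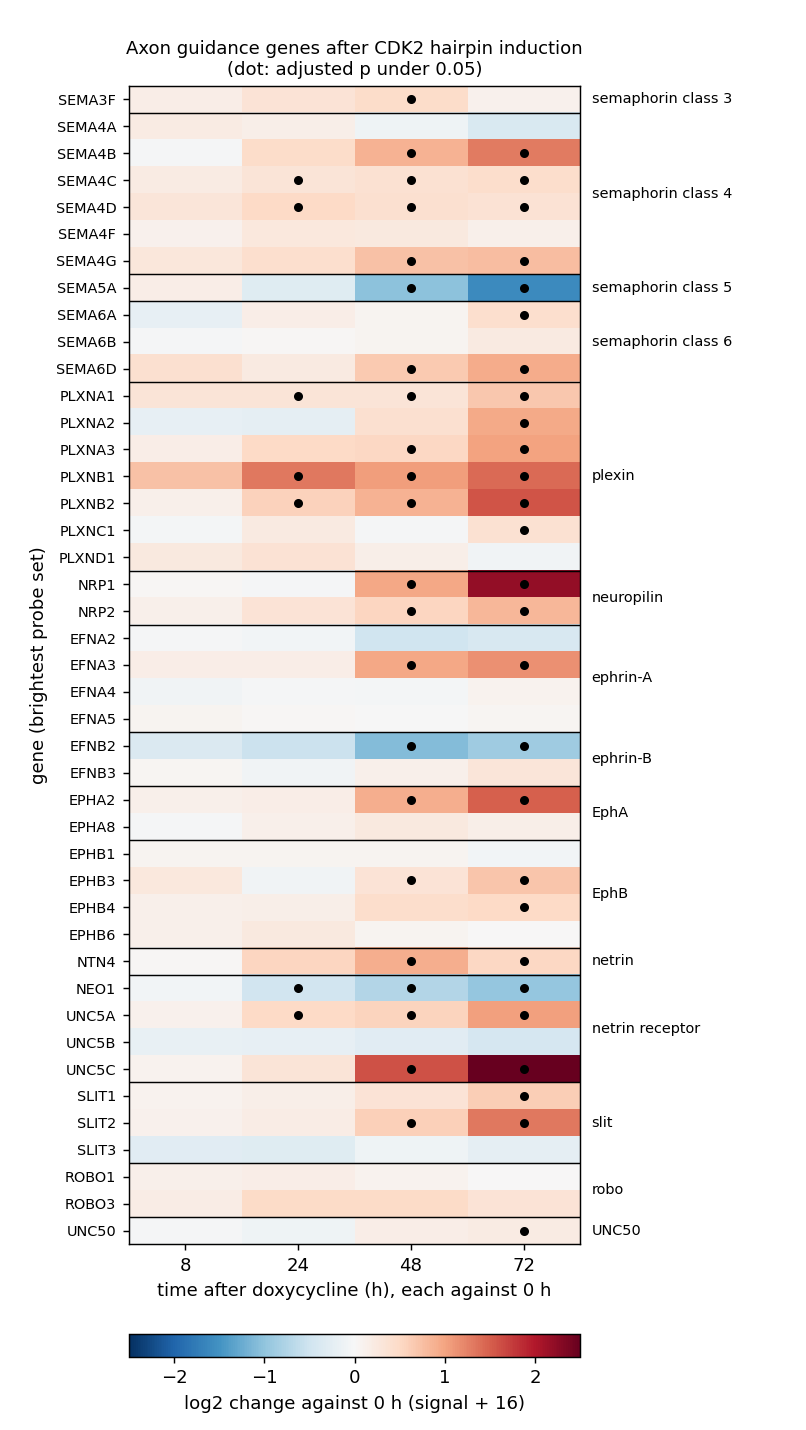
Log2 change of signal + 16 against 0 h (colour, red higher and blue lower) at 8, 24, 48 and 72 h for the brightest probe set of each of the 43 genes past the filter, grouped by family; a dot marks an adjusted p under 0.05. The darkest red cells are UNC5C and NRP1 at 72 h, the darkest blue is SEMA5A at 72 h, and the 8 h column has no dot.

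Among the semaphorins, 4 of 6 class 4 genes rose, SEMA5A fell, and the secreted class 3 was little represented. Class 4 holds membrane-bound ligands of the plexin-B receptors among others, and 0 of its genes were called lower at 72 h. SEMA4B read 39.8, 40.1 and 47.5 units at 0 h, 28.5, 51.7 and 47.8 at 8 h, 62.0, 58.6 and 71.5 at 24 h, 90.2, 74.4 and 110.2 at 48 h and 104.2, 101.3 and 189.0 at 72 h. Its 72 h arrays all stood above the 0 h arrays, with one of them well above the other two, and the log2 change was 0.87 ± 0.20 (SE, adjusted p = 0.00264) at 48 h and 1.29 ± 0.20 (SE, adjusted p = 4.7e-05) at 72 h. SEMA4C, a ligand of plexin-B2 and the class 4 gene with the highest signal, read 524.5, 582.0 and 515.0 units at 72 h, against 414.7, 418.2 and 360.9 at 0 h. The change was smaller, 0.43 ± 0.10 (SE, adjusted p = 0.00189), with no overlap of the arrays, and its other probe set was not called (0.28).

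SEMA4D and SEMA4G, named after their values were seen, were the other class 4 genes called at 72 h. SEMA4G had a log2 change of 0.78 ± 0.17 (SE, adjusted p = 0.0011), from a signal near background at 0 h (12.7 ± 3.57 units, SD, n = 3). SEMA4D, the ligand of plexin-B1, had 0.36 ± 0.14 (SE, adjusted p = 0.0442). That call ended without 0 h replicate 1, 2 or 3, 8 h replicate 1, 24 h replicate 1 or 72 h replicate 1 or 2 (adjusted p = 0.0503 to 0.14), and with a pseudocount of 64, quantile normalisation, median centring or no filter (adjusted p = 0.0523 to 0.122). SEMA4A had -0.39 (adjusted p = 0.0993), with one 72 h array at 16.6 units and the other two at 43.0 and 44.5, and was called without 72 h replicate 1 (-0.52, adjusted p = 0.0465) or 2 (-0.54, adjusted p = 0.0362), after quantile normalisation (-0.53, adjusted p = 0.02) and after median centring (-0.48, adjusted p = 0.0335). SEMA4F had 0.13 on its brightest probe set, not called, while both of its other probe sets were called at 0.25 and 0.52.

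SEMA5A, a transmembrane semaphorin with thrombospondin repeats that attracts or repels depending on its surroundings, fell the most of all members. It read 186.4, 199.8 and 223.9 units at 0 h, 209.4, 210.8 and 267.2 at 8 h, 169.6, 177.2 and 141.0 at 24 h, 74.2, 105.5 and 98.2 at 48 h and 55.4, 55.5 and 58.5 at 72 h. The arrays at 24 h were already all below those at 0 h, with a change of -0.30 ± 0.13 (SE, adjusted p = 0.168), which was not called, and those at 72 h were tightly grouped at about 0.331 of the 0 h level. The log2 changes were -1.02 ± 0.13 (SE, adjusted p = 9.9e-06) at 48 h and -1.59 ± 0.13 (SE, adjusted p = 2.3e-08) at 72 h, and both other probe sets fell at 72 h (-1.19 and -1.10). Each of the last steps was a fall of its own: -0.72 from 24 h to 48 h (adjusted p = 0.00086) and -0.57 from 48 h to 72 h (adjusted p = 0.0126).

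Class 6 semaphorins, transmembrane ligands of the plexin-A receptors, were higher or not called. SEMA6D, a ligand of plexin-A1 and also named after its values were seen, read 255.5, 247.4 and 253.1 units at 72 h, against 137.9, 131.7 and 108.3 at 0 h. The groups did not overlap, the change was 0.92 ± 0.10 (SE, adjusted p = 5.2e-07), and 2 of its 3 other probe sets rose too. SEMA6A, the brightest of the class, read 742.4, 750.7 and 734.4 units at 72 h, against 615.8, 582.9 and 461.9 at 0 h, a change of 0.42 ± 0.16 (SE, adjusted p = 0.0401). This call ended without 72 h replicate 1, 2 or 3 or 0 h replicate 2 or 3 (adjusted p = 0.0568 to 0.179), after median centring (0.33, adjusted p = 0.0872) and with no filter (adjusted p = 0.0836), while a second probe set of the gene was called at 0.51 ± 0.09 (SE, adjusted p = 0.00022). SEMA6B was not called at any time (0.23 at 72 h).

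SEMA3F, a secreted repellent read by neuropilin-2, was the only 1 of 7 class 3 genes past the filter. It read 78.1, 71.3 and 81.1 units at 0 h, 92.9, 86.7 and 86.3 at 8 h, 96.1, 105.4 and 102.3 at 24 h, 140.8, 108.5 and 88.0 at 48 h and 89.0, 101.6 and 65.4 at 72 h. The mean was highest at 48 h, and at 72 h one array lay below and the other two above the 0 h arrays, with log2 changes of 0.45 ± 0.15 (SE, adjusted p = 0.0244) and 0.11 ± 0.15 (SE, adjusted p = 0.566). The 48 h call ended without 0 h replicate 1 or 2 or 48 h replicate 1 or 2 (adjusted p = 0.0531 to 0.141), and under quantile normalisation and median centring.

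Most receptors of the semaphorins rose. Of 7 plexins past the filter 6 were higher at 72 h and 0 lower, with a median log2 change of 0.94, and both neuropilins were higher. PLXNB2, the receptor of SEMA4C, read 302.0, 334.4 and 293.7 units at 0 h, 357.7, 338.9 and 323.9 at 8 h, 442.3, 424.1 and 553.6 at 24 h, 560.5, 580.9 and 588.7 at 48 h and 956.3, 878.8 and 1046.4 at 72 h. No array after 8 h overlapped the 0 h arrays, and the changes were 0.58 ± 0.10 (SE, adjusted p = 0.001) at 24 h, 0.86 ± 0.10 (SE, adjusted p = 2.7e-06) at 48 h and 1.58 ± 0.10 (SE, adjusted p = 6.5e-10) at 72 h. PLXNB1, the receptor of SEMA4D, read 10.3, 2.6 and 14.1 units at 0 h, 31.1, 21.3 and 22.9 at 8 h, 48.3, 31.7 and 58.5 at 24 h, 28.4, 37.4 and 38.1 at 48 h and 50.1, 53.5 and 46.0 at 72 h. PLXNB1 was the only member gene called with an absolute log2 change of 1 or more at 24 h. All of its arrays from 8 h on stood above those at 0 h, which were near background. The change was 0.74 ± 0.19 (SE, adjusted p = 0.165) at 8 h, not called, 1.32 ± 0.19 (SE, adjusted p = 0.00023) at 24 h and 1.42 ± 0.19 (SE, adjusted p = 8.3e-06) at 72 h.

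The plexin-A receptors, which signal for class 3 semaphorins together with neuropilins, were higher at 72 h in all 3 genes past the filter. PLXNA3 read 41.6, 37.3 and 41.2 units at 0 h, 34.9, 56.0 and 51.7 at 8 h, 64.7, 58.7 and 64.3 at 24 h, 55.1, 72.3 and 64.5 at 48 h and 122.1, 96.1 and 76.6 at 72 h. The 72 h arrays lay above all earlier ones, with a change of 1.01 ± 0.16 (SE, adjusted p = 4.3e-05), and the second probe set gave 1.13. At 48 h the change was 0.51 ± 0.16 (SE, adjusted p = 0.0171), and this call ended without 0 h replicate 2 (0.47, adjusted p = 0.0595) or 48 h replicate 2 (0.43, adjusted p = 0.078), and after quantile normalisation (0.38, adjusted p = 0.0597). PLXNA1, the brightest plexin, read 777.9, 750.0 and 755.4 units at 72 h, against 458.5, 460.8 and 493.0 at 0 h, with 0.68 ± 0.08 (SE, adjusted p = 2.2e-06), but its 2 dimmer probe sets were not called (0.05 and -0.19). PLXNA2, named after its values were seen, had 0.94 ± 0.18 (SE, adjusted p = 0.00031) on one probe set and 1.05 on the other.

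PLXNC1, the receptor of SEMA7A, had 0.38 ± 0.15 (SE, adjusted p = 0.0444). The call ended without 0 h replicate 1 or 3, 24 h replicate 1, 48 h replicate 3 or 72 h replicate 1, 2 or 3 (adjusted p = 0.0506 to 0.14). It also ended with a pseudocount of 1 or no filter, and after quantile normalisation (0.24, adjusted p = 0.188) or median centring (0.29, adjusted p = 0.129). PLXND1, the receptor of SEMA3E, was not called: its arrays at 8 h and 24 h all stood above those at 0 h (0.36 at 24 h, adjusted p = 0.0785, 0.0171 without 72 h replicate 3 and 0.0163 with array weights), and at 72 h the change was -0.09. Both were named after their values were seen.

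NRP1, the co-receptor of SEMA3A and of vascular endothelial growth factor, read 28.4, 19.4 and 23.5 units at 0 h, 14.6, 23.9 and 37.9 at 8 h, 22.1, 19.5 and 27.1 at 24 h, 49.7, 69.7 and 64.7 at 48 h and 156.9, 161.7 and 180.7 at 72 h. The 8 h and 24 h arrays overlapped those at 0 h, with one at 8 h below and one above them. The signal then lay clear of the 0 h values at 48 h and again clear of the 48 h values at 72 h. Its changes were 0.96 ± 0.18 (SE, adjusted p = 0.00043) at 48 h and 2.20 ± 0.18 (SE, adjusted p = 2.1e-08) at 72 h, and the steps were 0.99 from 24 h to 48 h (adjusted p = 0.0009) and 1.24 from 48 h to 72 h (adjusted p = 0.00029). NRP2, the co-receptor of SEMA3F, read 114.1, 142.0 and 103.2 units at 72 h, against 56.9, 74.6 and 49.4 at 0 h. Its brightest probe set had 0.83 ± 0.17 (SE, adjusted p = 0.00068), while none of its 7 other probe sets past the filter was called (-0.05 to 0.39).

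Among the ephrins few genes passed the test. Of 4 ephrin-A genes, lipid-anchored ligands, 1 was higher at 72 h and 0 lower. EFNA3 read 45.9, 29.0 and 23.1 units at 0 h, 33.6, 46.6 and 33.7 at 8 h, 68.2, 64.1 and 6.5 at 24 h, 100.5, 71.3 and 63.3 at 48 h and 106.8, 82.0 and 81.5 at 72 h. One array at 24 h, 6.5 units, lay far below the other two, and without it the 24 h change of 0.16 became 0.78 (adjusted p = 0.0355). The 48 h and 72 h arrays all stood above those at 0 h. The later changes were 0.96 ± 0.35 (SE, adjusted p = 0.0407) at 48 h and 1.14 ± 0.35 (SE, adjusted p = 0.0124) at 72 h, and the call at 72 h ended without 0 h replicate 3 (1.0, adjusted p = 0.0528). That at 48 h ended without 0 h replicate 2 or 3 or 48 h replicate 1, 2 or 3 (adjusted p = 0.0527 to 0.138), and with a pseudocount of 1, quantile normalisation, median centring or no filter (adjusted p = 0.06 to 0.0978). EFNA5 averaged 397 ± 26.5 units at 72 h and 384 ± 12.9 at 0 h (SD, n = 3), with a change of 0.05 ± 0.08 (SE, adjusted p = 0.633). EFNA2 (-0.40, adjusted p = 0.0972) and EFNA4 (0.09), named after their values were seen, were not called at 72 h. EFNA2 was called then without 8 h replicate 3 (-0.40, adjusted p = 0.0312), after quantile normalisation (-0.50, adjusted p = 0.0292) or median centring (-0.49, adjusted p = 0.0353) and with array weights (-0.41, adjusted p = 0.0386). At 48 h EFNA2 had -0.50 (adjusted p = 0.0537), and was called after quantile normalisation or median centring, with array weights or 1 probe set for each gene, and without 8 h replicate 2 or 3 or 48 h replicate 2 (adjusted p = 0.0126 to 0.0475).

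EFNB2, a transmembrane ephrin that marks arteries and guides neural crest cells, fell. It read 70.8, 87.8 and 119.8 units at 0 h, 52.0, 59.8 and 92.9 at 8 h, 48.8, 58.1 and 66.7 at 24 h, 32.0, 30.7 and 40.9 at 48 h and 31.9, 32.0 and 69.9 at 72 h. All arrays from 24 h on lay below those at 0 h, though one at 72 h, 69.9 units, came close to the lowest of them. The changes were -1.09 ± 0.22 (SE, adjusted p = 0.00113) at 48 h and -0.88 ± 0.22 (SE, adjusted p = 0.00395) at 72 h, and the dimmer probe set fell too (-0.52 at 72 h). EFNB3 was not called, with 0.30 ± 0.16 (SE, adjusted p = 0.123), although its 72 h arrays lay above those at 0 h, and without 8 h replicate 3 the adjusted p was 0.0454.

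Of the Eph receptors, only 2 of 12 EphA genes passed the filter, and all 4 EphB genes did. EPHA2, a receptor of ephrin-A ligands widespread in epithelia and tumours, read 34.0, 19.5 and 21.9 units at 0 h, 27.3, 31.9 and 26.7 at 8 h, 22.4, 29.6 and 38.8 at 24 h, 62.6, 51.0 and 68.8 at 48 h and 101.8, 77.5 and 120.5 at 72 h. The arrays at 48 h and at 72 h stood clear of the 0 h values, with changes of 0.91 ± 0.17 (SE, adjusted p = 0.00057) and 1.49 ± 0.17 (SE, adjusted p = 2e-06). EPHA8 was not called (0.15 at 72 h). EPHB3, the brightest EphB gene, read 127.3, 120.2 and 110.9 units at 72 h, against 77.8, 66.7 and 58.9 at 0 h, a change of 0.70 ± 0.12 (SE, adjusted p = 0.00018), and its second probe set had 0.74. EPHB3 was also called at 48 h (0.35 ± 0.12 (SE, adjusted p = 0.0366)), a call that ended without 0 h replicate 2 or 3 or 48 h replicate 1, 2 or 3 (adjusted p = 0.0509 to 0.148), after quantile normalisation (0.24) or median centring (0.25) and with no filter (adjusted p = 0.0629 to 0.147).

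The remaining EphB genes were named after their values were seen. EPHB4, the receptor of EFNB2, was called at 72 h (0.50 ± 0.19 (SE, adjusted p = 0.0402)) with overlapping arrays, and the call ended without 0 h replicate 1 (0.32) or 72 h replicate 1 or 3 (adjusted p = 0.112 to 0.209), and with quantile normalisation, median centring, no filter or array weights (adjusted p = 0.0603 to 0.11). EPHB1 (-0.06) and EPHB6, a receptor whose kinase domain is inactive (0.01), were not called at any time.

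Of the netrin receptors UNC5C and UNC5A rose, while NEO1 fell, as did UNC5B on its dimmer probe sets. UNC5C, which mediates repulsion from netrin and can trigger cell death when netrin is absent, had the largest change of all members. It read 102.3, 94.9 and 137.5 units at 0 h, 115.1, 117.6 and 121.2 at 8 h, 152.9, 127.0 and 148.7 at 24 h, 323.6, 334.4 and 448.9 at 48 h and 657.9, 568.6 and 897.4 at 72 h. Up to 24 h the values lay within or just above the 0 h range; at 48 h and 72 h they were all far above it. The changes were 0.33 ± 0.16 (SE, adjusted p = 0.219) at 24 h, 1.59 ± 0.16 (SE, adjusted p = 6.1e-07) at 48 h and 2.49 ± 0.16 (SE, adjusted p = 9.1e-10) at 72 h, and its other probe sets had 1.31 and 0.96. Both later steps passed the test, 1.27 from 24 h to 48 h (adjusted p = 2.5e-05) and 0.90 from 48 h to 72 h (adjusted p = 0.00189).

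UNC5A, a second receptor of this kind, read 52.7, 50.0 and 33.7 units at 0 h, 46.5, 58.0 and 44.9 at 8 h, 74.3, 62.1 and 75.3 at 24 h, 84.2, 75.4 and 63.6 at 48 h and 112.3, 123.5 and 91.7 at 72 h. All arrays from 24 h on stood above those at 0 h, and the changes were 0.56 ± 0.15 (SE, adjusted p = 0.00706) at 48 h and 1.03 ± 0.15 (SE, adjusted p = 2.2e-05) at 72 h. The 24 h change of 0.50 was called at an adjusted p of 0.0443, and leaving out any 1 of 9 arrays ended that call: all 3 at 0 h and at 24 h, 8 h replicate 1, 48 h replicate 2 and 72 h replicate 1 (adjusted p = 0.05 to 0.193). It also ended with a pseudocount of 64, quantile normalisation, median centring or no filter (adjusted p = 0.0551 to 0.0896). UNC5B, the brightest netrin receptor and a known p53 target, had -0.42 ± 0.17 (SE, adjusted p = 0.0577) on its brightest probe set, which missed the threshold, with 8 h replicate 1 at 423.0 units beside 760.1 and 748.5. Without that array the same change had an adjusted p of 0.00819, and it was also called without 8 h replicate 2 or 3, 0 h replicate 3 or 72 h replicate 3 (adjusted p = 0.0308 to 0.0474), after median centring (-0.51, adjusted p = 0.027), with array weights (-0.50, adjusted p = 0.0107) and with 1 probe set for each gene (adjusted p = 0.0461). Its 2 other probe sets fell at 48 h and at 72 h, -0.43 and -0.33 at 48 h and -0.27 and -0.39 at 72 h.

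NEO1, neogenin, a receptor of netrins and of repulsive guidance molecules, read 333.8, 300.3 and 357.7 units at 0 h, 340.8, 328.5 and 279.4 at 8 h, 261.1, 221.5 and 217.5 at 24 h, 194.7, 207.8 and 174.9 at 48 h and 163.9, 157.1 and 159.4 at 72 h. It stepped down at each time from 24 h on, with no overlap with the 0 h arrays. The changes were -0.48 ± 0.10 (SE, adjusted p = 0.0071) at 24 h, -0.73 ± 0.10 (SE, adjusted p = 2.7e-05) at 48 h and -0.97 ± 0.10 (SE, adjusted p = 5.5e-07) at 72 h, and the second probe set had -0.78 at 72 h. DCC, the classical attractive receptor, had no probe set past the filter. NTN4, a netrin of basement membranes and the only 1 of 4 netrins past the filter, read 19.9, 15.9 and 13.5 units at 0 h, 24.5, 18.8 and 9.2 at 8 h, 28.1, 37.2 and 28.4 at 24 h, 47.4, 45.9 and 40.4 at 48 h and 33.5, 37.1 and 22.1 at 72 h. Its signal was highest at 48 h, where the change was 0.90 ± 0.18 (SE, adjusted p = 0.00069), and at 72 h it was 0.52 ± 0.18 (SE, adjusted p = 0.022). That last call ended without 0 h replicate 2 or 3 or 72 h replicate 1 or 2 (adjusted p = 0.0553 to 0.0938), after quantile normalisation (0.40, adjusted p = 0.0553) and with no filter (adjusted p = 0.0586).

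Of 3 slit genes past the filter 2 rose at 72 h, and neither of the 2 ROBO genes past the filter was called at that time. SLIT2, a secreted repellent, read 37.6, 26.8 and 54.1 units at 0 h, 41.4, 39.9 and 46.2 at 8 h, 46.5, 41.5 and 49.9 at 24 h, 69.8, 61.3 and 69.1 at 48 h and 96.7, 114.2 and 154.1 at 72 h. The 72 h arrays stood above those of every earlier time, with a change of 1.32 ± 0.17 (SE, adjusted p = 5.7e-06), and its other probe sets rose by 1.40 and 0.96. At 48 h the change was 0.60 ± 0.17 (SE, adjusted p = 0.01), and it was not called without 0 h replicate 2 (0.43, adjusted p = 0.0696). SLIT1, named after its values were seen, had 0.62 ± 0.18 (SE, adjusted p = 0.00786), a call that ended without 0 h replicate 2 (0.45, adjusted p = 0.0573). SLIT3, the brightest slit, read 375.0, 331.7 and 294.9 units at 72 h, against 450.1, 380.6 and 355.3 at 0 h, overlapping, with -0.23 ± 0.13 (SE, adjusted p = 0.166), called lower after median centring (-0.33, adjusted p = 0.0387), while one of its dimmer probe sets was called higher at 0.35.

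ROBO1, the main slit receptor, read 1083.4, 1008.8 and 932.2 units at 0 h, 1075.6, 1132.5 and 1073.9 at 8 h, 1171.0, 1079.0 and 1132.5 at 24 h, 1083.6, 1044.1 and 1055.4 at 48 h and 999.3, 959.1 and 1071.2 at 72 h. The 0 h arrays overlapped those of every later time, while the 72 h arrays lay just below all of those at 8 h and 24 h. At 72 h the change was 0.00 ± 0.07 (SE, adjusted p = 0.973). It was called after quantile normalisation at 24 h (0.24, adjusted p = 0.0337) and at 48 h (0.19, adjusted p = 0.0344). ROBO3, named after its values were seen, had 0.34 ± 0.23 (SE, adjusted p = 0.232) at signals of 9.0 to 40.5 units.

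**Figure D3:**
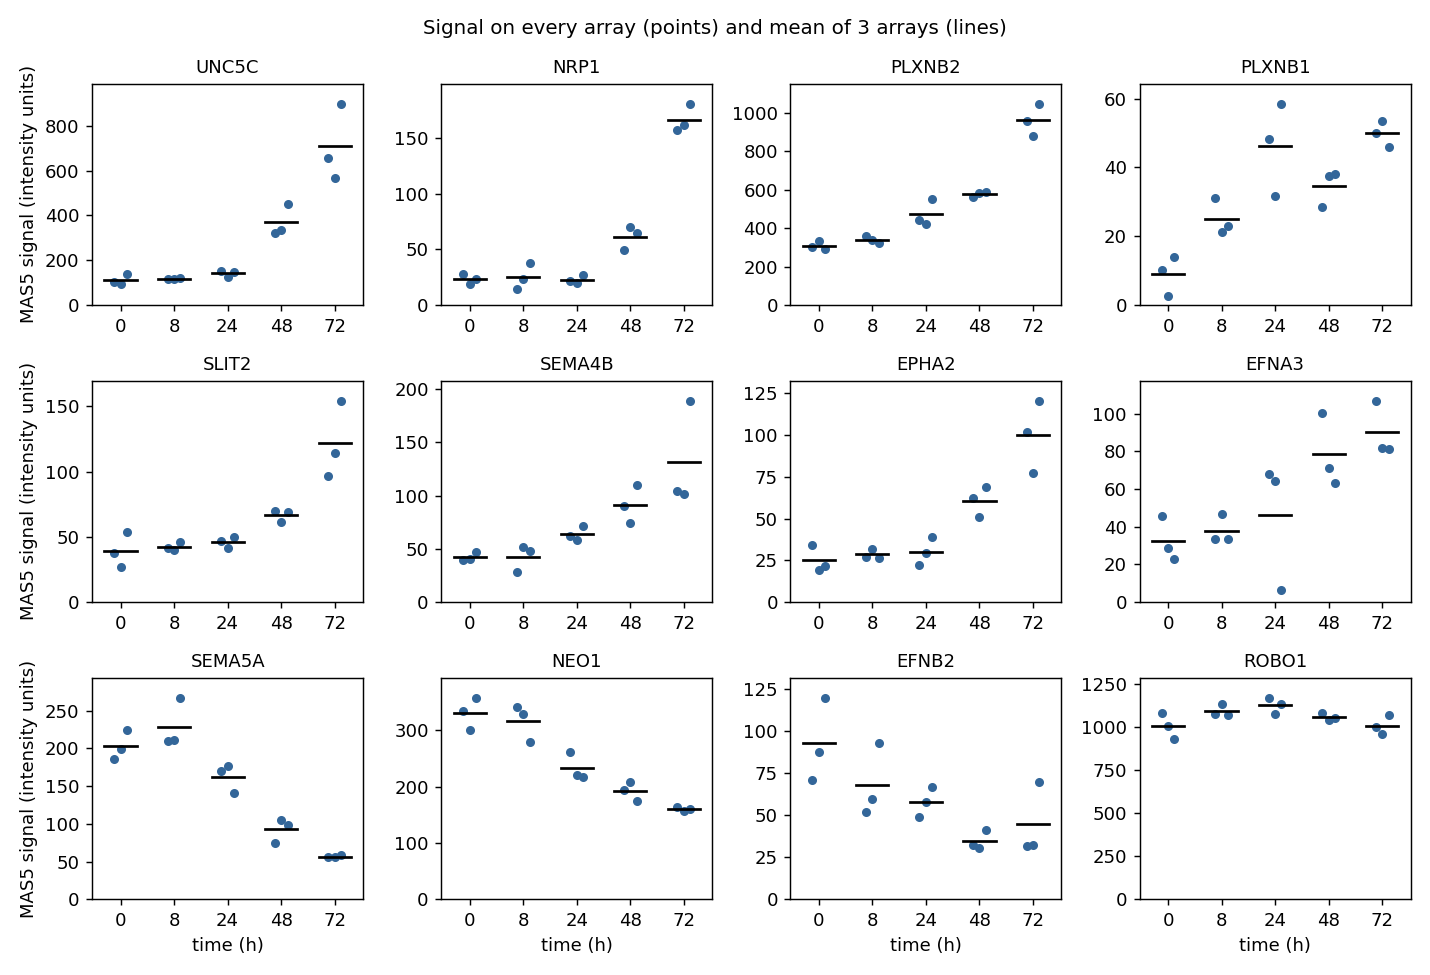
MAS5 signal (intensity units, each panel on its own linear axis from 0) against time in hours for 12 genes through their brightest probe set; points are single arrays and lines the mean of the 3 arrays at each time. UNC5C and NRP1 stay low to 24 h and climb at 48 h and 72 h, PLXNB1 is up by 24 h, SEMA5A and NEO1 descend, and the 0 h arrays of ROBO1 overlap those of every later time.

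Probe sets of the same gene were often called together. Of 21 genes with more than 1 probe set past the filter, 14 were called at 72 h through the brightest. In 8 of the 14 all others were called the same way too, and in 4 no other was: SEMA4C, PLXNA1, PLXNC1 and NRP2. In 0 genes were 2 probe sets called in opposite directions at 72 h. Probe sets may read different transcripts of a gene, and which transcripts these read was not analysed here.

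**Figure D4:**
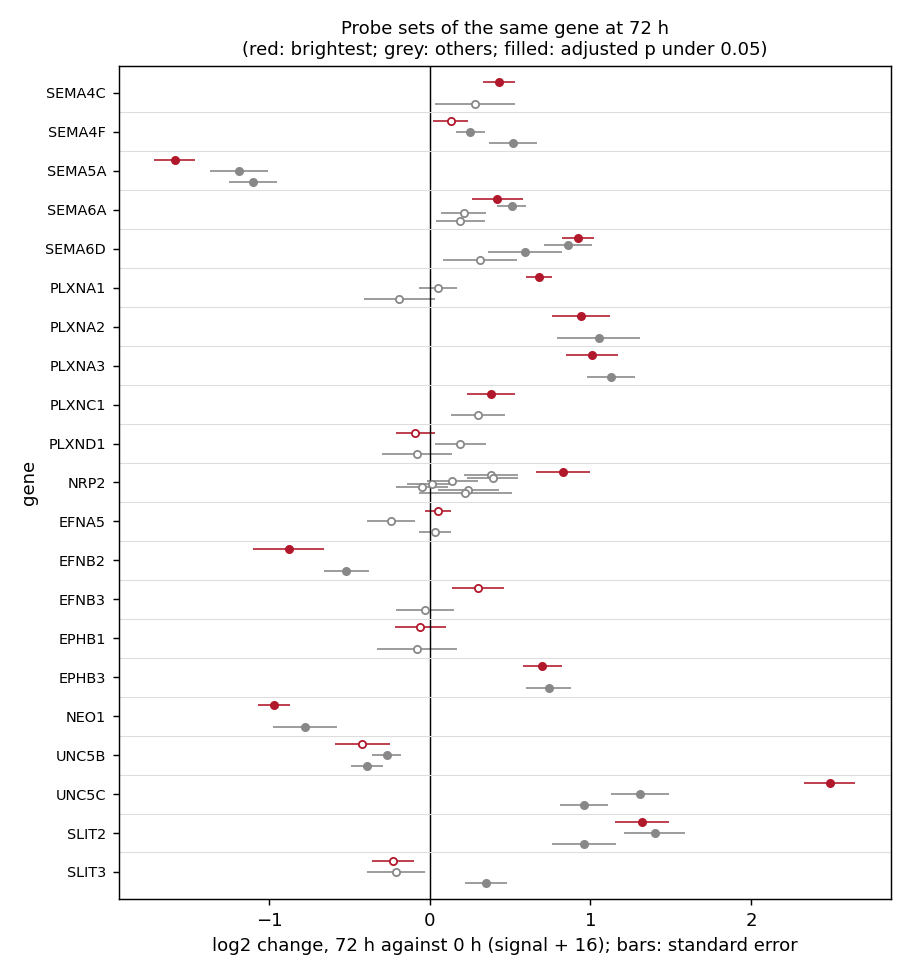
Log2 change of signal + 16 at 72 h against 0 h (x axis) for every probe set of the 21 genes that have more than 1 past the filter; red marks the brightest and grey the others, filled symbols have an adjusted p under 0.05, and bars are standard errors. For UNC5C, SLIT2 and SEMA5A all probe sets lie on the same side and are filled, whereas the 7 dimmer probe sets of NRP2 are open and lie nearer to 0 than its brightest.

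Taken step by step, without the 0 h arrays, most calls came after 24 h. Between 8 h and 24 h, 1 of the 83 probe sets rose and 2 fell (background 1.59% and 2.04%). The rise was in PLXNB2 (0.45, adjusted p = 0.0153) and the falls in NEO1 (-0.41) and a dimmer UNC5B probe set (-0.39). The rise was lost without 8 h replicate 3 or 24 h replicate 3, and 0 falls remained without 8 h replicate 1 or 2 or 24 h replicate 2 or 3. Of all probe sets 433 rose in this step, 198 without 8 h replicate 3 and 148 without 24 h replicate 3. Falls of all numbered 556, and 416 and 463 without 8 h replicate 1 and 2. They were 338 and 246 without 24 h replicate 2 and 3. Between 24 h and 48 h, 10 rose and 4 fell (7.92% and 6.96%), and between 48 h and 72 h 7 rose and 1 fell (2.4% and 3.74%). The first of these counts was 6 without 24 h replicate 2 or 48 h replicate 3, and the 4 falls became 1 without 24 h replicate 1 or 48 h replicate 2 or 3 and 2 without 48 h replicate 1. From 48 h to 72 h, 4 rose and 0 fell without 48 h replicate 2, and 2 fell without 72 h replicate 3. Of all probe sets 2163 rose from 24 h to 48 h, 1643 without 24 h replicate 2 and 1222 without 48 h replicate 3. Falls of all in that step numbered 1900, and 1439 without 24 h replicate 1. They were 1731, 1466 and 1288 without 48 h replicate 1, 2 and 3. From 48 h to 72 h 655 of all rose and 1021 fell. Without 48 h replicate 2 these were 260 and 542, and 667 fell without 72 h replicate 3. UNC5C and NRP1 rose in both of the later steps and SEMA5A fell in both. PLXNB2 rose by 0.72 (adjusted p = 0.00017), PLXNA1 by 0.36 (adjusted p = 0.0114) and SLIT2 by 0.71 (adjusted p = 0.017) from 48 h to 72 h.

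Below the filter lay 101 member probe sets, and 35 genes had no other. The highest mean of these probe sets was 17.75 units. They were EFNA1, EFNB1, EPHA1, EPHA3, EPHA4, EPHA5, EPHA6, EPHA7, EPHA10, NTN1, NTN3, NTN5, DCC, UNC5D, PLXNA4, PLXNB3, ROBO2, ROBO4, SEMA3A, SEMA3B, SEMA3C, SEMA3D, SEMA3E, SEMA3G, SEMA5B, SEMA6C and SEMA7A, with UNC5CL and the 7 noncoding genes. One further probe set names SEMA3B together with a microRNA gene and was not counted as a member. UNC50, the member with no known guidance role here, read 486 ± 31.5 units at 72 h and 418 ± 8.36 at 0 h (SD, n = 3), a change of 0.21 ± 0.08 (SE, adjusted p = 0.0498). That call, at the edge of the threshold, was lost when any 1 of 10 arrays was left out, namely all 3 at 0 h and at 24 h, 8 h replicate 1, 48 h replicate 2 and 72 h replicate 2 or 3 (adjusted p = 0.0528 to 0.137). It was also lost after median centring (0.12, adjusted p = 0.351) and with no filter (adjusted p = 0.0732).

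Genes that work with the members were counted from lists of textbook components. Of 61 effectors past the filter, proteins that carry guidance signals to the cytoskeleton, 28 (45.9%) were higher and 11 (18%) lower at 72 h, with a median log2 change of 0.20, where 31.5% and 21.9% of all genes were. SRGAP3, a GTPase-activating protein of slit signalling, had 2.03 ± 0.17 (SE, adjusted p = 4.9e-08), and MICAL1, an oxidase that acts on actin below plexins, 1.34 ± 0.12 (adjusted p = 7.7e-08). RRAS, a small GTPase switched off by plexins, had -0.84 (adjusted p = 0.00919), and DPYSL2, also called CRMP2, which binds tubulin downstream of semaphorins, -0.83 (adjusted p = 1.8e-08). In the same list 4 (6.56%) were higher and 2 (3.28%) lower at 24 h, and 16 (26.2%) and 9 (14.8%) at 48 h, where 24.6% and 16.7% of all genes were.

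Of 45 other cues, receptors and adhesion molecules past the filter, 24 (53.3%) were higher and 7 (15.6%) lower at 72 h, beside the 31.5% and 21.9% of all genes, with a median log2 change of 0.39, after 5 and 1 at 24 h and 22 (48.9%) and 2 (4.44%) at 48 h. CNTN3, a contactin, had 2.93 ± 0.19 (SE, adjusted p = 1.4e-09), at 243.9 ± 33.7 units at 72 h and 18.5 ± 7.85 at 0 h (SD, n = 3). CXCR4, the chemokine receptor that also steers neural crest cells, had 2.40 ± 0.24, the secreted cue WNT5A 1.54 ± 0.13 and the axonal adhesion molecule NFASC 1.49 ± 0.13. These had the largest absolute changes called in the list. Of the 7 falls the largest were in LRRC4 (-1.23), FLRT3 (-1.07) and DRAXIN (-0.88), named after their values were seen. Of 23 co-receptors, sheddases and proteoglycans past the filter, 5 (21.7%) were higher and 5 (21.7%) lower at 72 h, beside the 31.5% and 21.9% of all genes, with a median of 0.02. Within them the heparan sulphate proteoglycan SDC2 fell by 1.28 (SE 0.08) and SDC1 by 0.75 on the log2 scale, the protease PCSK5 by 1.29, and VEGFA, a growth factor that binds NRP1, had 1.12 ± 0.17. At 8 h 0 genes of these 3 lists were called.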

How the data were processed

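Per the labels, total RNA was labelled with biotin by the one-cycle protocol and hybridised to Affymetrix U133 Plus 2.0 arrays. The authors deposited 1 intensity on a linear scale per probe set (54675 in all), made with MAS5 and GCOS per the submitters' processing notes, with no versions. The trimmed mean (2% at each end) was 100.01 on every array, so the intensities were used as deposited, and the median signal ran from 15.1 to 20.5. Gene names came from the platform annotation: 41091 probe sets name 1 gene, 1801 several and 11721 none, and 62 are controls.

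Here log2(signal + 16) was taken, and probe sets with a mean at or above the median of all (27307) were fitted over the 5 times with limma 3.58.1 (lmFit, eBayes with trend=TRUE) in R 4.3.3. The threshold was a Benjamini-Hochberg adjusted p of 0.05 over all probe sets tested. Fold changes on this scale understate the change of dim probe sets. Levels of different probe sets were ranked to filter and to pick the brightest of a gene or family. They were not read as relative amounts of RNA. A gene is described by its brightest probe set past the filter. The code was tested on simulated data; Python 3.11.15, pandas 2.3.3 (tables) and matplotlib 3.10.9 (figures) did the rest. The members and gene lists were chosen with earlier results of these data known.

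Named genes were those called with an absolute log2 change of 1 or more at any time, the brightest of each family, the 10 largest rises and 10 largest falls called at 72 h, genes called in opposite directions, and up to 4 genes of each list. Other names were added after their values were seen, as the text says. Alternatives were a pseudocount of 1 or 64, quantile normalisation, centring on the median, no filter, the brightest 25% of probe sets, 1 probe set for each gene, array weights, a replicate block, a further threshold on the change, and leaving out each array. The 15 arrays limit the precision.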

Additional observations from a re-analysis of the deposited data

How the results depend on the processing

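No gene changed direction while called: of 4024 gene values against 0 h under the alternatives, 3829 kept their side of the threshold, 136 lost the call, 59 gained it and 0 reversed. Counts of member probe sets moved more. With an absolute log2 change of 1 in addition, higher and lower counts were 1 and 0 at 24 h, 2 and 2 at 48 h, 14 and 3 at 72 h, 0 and 0 from 8 h to 24 h, 1 and 0 from 24 h to 48 h, and 1 and 0 from 48 h to 72 h. Over all probe sets they were 37 and 99 at 24 h, 516 and 532 at 48 h, and 1139 and 1098 at 72 h. For the steps, in the same order, they were 13 and 22, 111 and 282, and 46 and 130. With the brightest 25% of probe sets, fewer members are tested. Member counts were then 4 higher at 24 h, 6 and 5 at 48 h, and 9 and 5 at 72 h. By step they were 4 and 2 from 24 h to 48 h, and 4 higher from 48 h to 72 h. Of all 13654 then tested, 1042 were higher at 24 h. At 48 h 3431 of them were higher and 2987 lower, and at 72 h 4177 and 3844. By step, 1776 rose and 1639 fell from 24 h to 48 h, and 569 rose from 48 h to 72 h. With 1 probe set for each gene, also fewer, member counts were 4 lower at 48 h, 24 and 4 at 72 h, and 1 lower from 24 h to 48 h. Of all 11774 then tested, 2082 were lower at 48 h and 1240 lower from 24 h to 48 h. At 72 h 3861 of them were higher and 2670 lower. At 24 h, 4 member probe sets were higher after quantile normalisation, 3 after centring on the median and 5 with no filter, which also gave 2 higher and 1 lower from 8 h to 24 h. With no filter, 792 of all 54613 were higher at 24 h, and 219 rose and 378 fell from 8 h to 24 h. Array weights (lowest 0.352 for 8 h replicate 3 and 0.394 for 72 h replicate 3) gave 3 lower at 24 h, and 14 higher and 2 lower from 48 h to 72 h. Of all probe sets they gave 1711 lower at 24 h, against 1091. In that last step they gave 1111 higher and 1466 lower of all, against 655 and 1021. A pseudocount of 64 gave 13 members higher in that last step, and 856 of all probe sets. Except where fewer probe sets were tested, the cause was not tested.

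Leaving out 1 array at a time gave 2 to 12 higher and 1 to 2 lower at 24 h, 0 to 1 and 0 to 3 from 8 h to 24 h, 6 to 11 and 1 to 4 from 24 h to 48 h, and 4 to 10 and 0 to 2 from 48 h to 72 h. At 48 h the range was 21 to 27 higher and 7 to 10 lower, and at 72 h 27 to 40 and 8 to 11. Over all probe sets the ranges were 671 to 1601 higher and 697 to 1269 lower at 24 h. They were 4479 to 6105 and 3154 to 4064 at 48 h, and 6303 to 7777 and 4592 to 5582 at 72 h. By step they were 148 to 542 and 246 to 657 from 8 h to 24 h. From 24 h to 48 h they were 1222 to 2544 and 1288 to 2244, and from 48 h to 72 h 260 to 919 and 542 to 1303.

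The replicate numbers of the titles are shared by all times. Between arrays that share a number, residuals had correlations of -0.11 to 0.304 (median 0.08), and between others of -0.257 to 0.254 (median -0.05), and 11 of 15 arrays correlated best with one of their own number, a hint from the data and not from the design. All 3 correlations were over 0.1 between 24 h and 72 h (0.101 to 0.141), and in none of the other pairs of times (0.098 to 0.182 between 0 h and 48 h). With the replicate block, 2 member probe sets were lower at 24 h and 13 higher from 48 h to 72 h, and the counts at 48 h and 72 h changed by less than 1.5 times. Of all probe sets 1318 were then lower at 24 h and 1047 higher from 48 h to 72 h, against 1091 and 655. The block ended 0 gene calls against 0 h and added 7: EFNA2 at 48 h (-0.50, adjusted p = 0.0123) and 72 h (-0.40, adjusted p = 0.0296), UNC5B at 72 h (-0.42, adjusted p = 0.0324), EFNB2 (adjusted p = 0.0199), NTN4 (adjusted p = 0.0285) and PLXND1 (adjusted p = 0.0305) at 24 h, and PLXNA2 at 48 h (adjusted p = 0.045). Signals near background limit the dim members.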

Other observations

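Some members with signals below the filter had higher readings at 72 h. In a fit of all 54613 probe sets with no filter, 15 of the 101 member probe sets below the filter were called higher at 72 h and 0 lower, 4 and 0 at 48 h, 1 and 0 at 24 h, and 0 and 0 at 8 h. Of all probe sets in that fit 7353 were higher and 4967 lower at 72 h, 5012 and 3417 at 48 h, 792 and 849 at 24 h, and 7 and 50 at 8 h. The share called higher among these members was near that of all probe sets at 72 h and below it at 48 h. That is not a like comparison, since the 54613 include the 27307 probe sets past the filter. The share among other probe sets below the filter was not counted. A second NRP1 probe set read 50.8, 74.5 and 42.7 units at 72 h, against 1.4, 1.2 and 3.4 at 0 h, with a log2 change of 1.98 ± 0.18 (SE, limma adjusted p = 7e-07). A second SEMA4D probe set read 25.2, 28.5 and 28.7 units at 72 h, against 0.8, 2.3 and 1.3 at 0 h, with a change of 1.32. SEMA6C, a transmembrane semaphorin with no probe set past the filter, read 22.1, 19.0 and 15.7 units at 72 h, against 3.8, 2.6 and 1.9 at 0 h (0.89, adjusted p = 5.8e-05). The ephrin EFNB1 read 33.3, 25.5 and 30.6 units at 72 h, against 11.5, 8.1 and 11.1 at 0 h (0.80, adjusted p = 0.00241). In 3 of 4 probe sets of EPHA7, an Eph receptor of the developing nervous system, the called changes were 0.57, 0.62 and 0.75. The slit receptor ROBO2 had 42.4, 30.8 and 9.0 units at 72 h, against 7.1, 7.9 and 3.6 at 0 h (0.89, adjusted p = 0.0281). All these genes were named after their values were seen, and at such signals the order of the readings at 0 h carries little information.

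The probe set that names SEMA3B together with MIR6872 averaged 9.70, 8.37, 4.60, 8.5 and 29.6 ± 17.5 units at 0, 8, 24, 48 and 72 h (SD at 72 h, n = 3) and lay below the filter.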
